A study of Arabidopsis thaliana with 12 samples.

Results

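FATB and AT4G24160 are 2 of the 691 Arabidopsis genes that had a probe of their own on the array used here. FATB (AT1G08510) encodes an acyl-ACP thioesterase, and AT4G24160 encodes the plant homologue of CGI-58, a regulator of lipid droplets. Each gene had 1 probe whose annotation named it alone. Both were chosen by their limma fold and adjusted p for prors1 against WT in an earlier treatment of these same values. The comparison of prors1 with WT was therefore used to choose them, and their values in it are given as a description with no test.

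Fatty acids of leaves are built in the plastid on acyl carrier protein (ACP), 1 pair of carbons at a time. FATB cuts the finished chain, mainly the saturated palmitate, from ACP, and the free fatty acid then leaves the plastid for the endoplasmic reticulum, where it enters membrane lipids, waxes and storage oil. Oil that leaf cells do store lies in lipid droplets. In mammals CGI-58 activates the lipase that breaks down triacylglycerol in such droplets. Arabidopsis plants that lack the homologue are known to gather neutral lipid droplets in their leaves, and the plant protein is known to interact with the peroxisomal transporter that brings fatty acids in for breakdown.

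The study measured total RNA of Arabidopsis thaliana on an array of 3439 probes, with 1 sample per column of values. The WT group was ecotype Columbia 0 and the other group was the prors1 mutant, which the labels describe as without prolyl-tRNA synthetase, which charges the proline transfer RNA for protein synthesis. Both groups had spent the night before in darkness, and the labels give no tissue, age or light-grown control. Each group had 6 columns of values. The groups rest on the sample titles, since every one of the 12 source labels reads WT, and PRORS1 had 0 probes of its own with which to check them. Columns 1 and 2, 3 and 4, and 5 and 6 of a group correlated across probes at 0.901 to 0.921 for WT and 0.957 to 0.965 for prors1, whereas other columns of a group did so at 0.843 to 0.883 and 0.883 to 0.906. The former were therefore taken as repeat readings, and their averages form what is called the 3 arrays of each group below. This grouping rests on the correlations alone, since the sample titles number the columns 1 to 6 and name no arrays. Whether different arrays hold different plants is not stated, so p-values and errors below cover array-to-array spread alone, perhaps technical.

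The deposited values are linear intensities whose unit is not given in the sources used here. Total intensity per column ran from 2312 to 3456, and its median over values above 0 was 0.224 to 0.289 for WT columns against 0.407 to 0.520 for those of prors1. Of the 18 tissue markers looked for, LHB1B2 of the light-harvesting antenna alone had a probe of its own, with an intensity of 24.9 ± 6.37 (SD, n = 3) in WT and 13.9 ± 4.79 in prors1. None of the seed, root or flower markers had one, so the tissue was not checked further. In such bulk RNA, fewer cells of a type and less RNA per cell cannot be told apart. Precision is limited by the number of arrays.

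FATB, which releases fatty acids for export, was a dim probe in both groups. On the deposited scale its 6 WT columns ran from 0 to 0.140 with a median of 0.0401, and its 6 prors1 columns from 0.0533 to 0.0965 with a median of 0.0610. The WT columns thus reached both lower and higher than those of prors1. Averaged per array, FATB read 0.0432, 0.0232 and 0.0809 in WT and 0.0540, 0.0812 and 0.0699 in prors1. The arrays of the groups overlapped on this scale, with means of 0.0491 ± 0.029 (SD, n = 3) in WT and 0.0683 ± 0.014 in prors1. These averages include a value of 0 in WT column 4, and without it WT array 2 read 0.0463 and the WT mean was 0.0568 ± 0.021. Repeat readings of FATB disagreed most on WT array 3, where 1 column gave 0.0216 and the other 0.140. After quantile normalization these readings lay 2.31 apart on the log2 scale, against a median difference of 0.227 over all tested probes on that array. WT column 4 listed FATB at 0, and that value is left out of its folds.

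AT4G24160, the CGI-58 homologue, was above 0 in all 12 columns. Its WT columns ran from 0.0863 to 0.288 with a median intensity of 0.142, and its prors1 columns from 0.0720 to 0.151 with a median of 0.102. Per array it read 0.0923, 0.217 and 0.171 in WT and 0.0727, 0.106 and 0.140 in prors1. WT array 1 was lower than prors1 arrays 2 and 3, so the groups overlapped on the deposited scale too. The means were 0.160 ± 0.063 (SD, n = 3) in WT and 0.106 ± 0.034 in prors1. Repeat readings of this probe differed by 0.035 to 0.92 after quantile normalization (log2), widest on prors1 array 2.

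**Figure D1:**
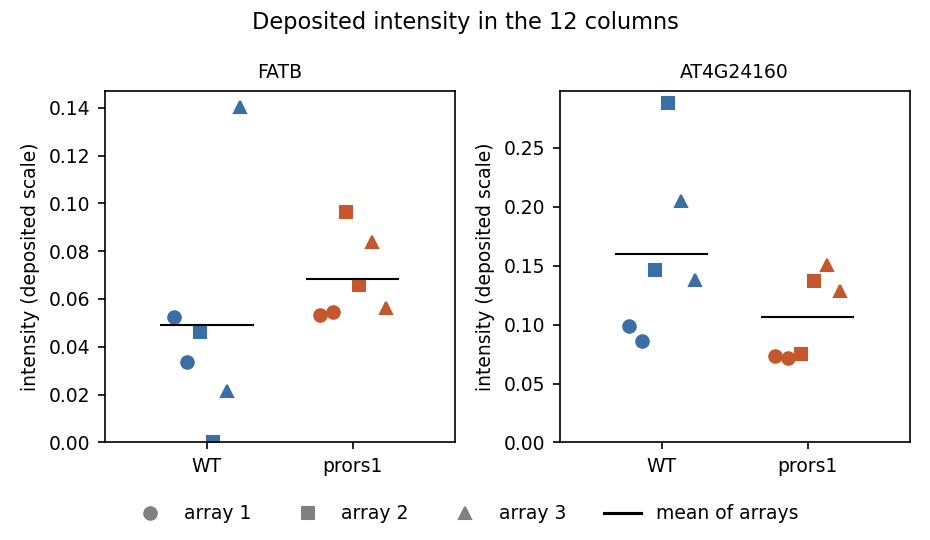
Deposited intensity (linear, unit not stated) of FATB and AT4G24160 in the 6 WT and 6 prors1 columns. Symbols mark the array of each column and lines the mean of the 3 arrays. For both genes the groups overlap, and for FATB the WT columns span 0 to 0.140.

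The position of each gene within its own column does not depend on how columns are scaled to each other. Among the probes above 0, FATB stood between percentiles 2.80 and 27.1 in WT (median 5.65, 5 columns) and between 1.21 and 4.81 in prors1 (median 2.55, 6 columns). These ranges overlapped for FATB. AT4G24160 stood between percentiles 13.6 and 49.9 in WT (median 25.7) and between 2.05 and 10.9 in prors1 (median 5.76), so its WT and prors1 columns did not overlap in rank, as held for 15.9% of tested probes in this direction. Since the contrast chose the gene, nothing is read from this. In prors1 both genes therefore lay near the bottom of the array in every column. Their prors1 intensities were at or under 0.151, while the tenth percentile of values above 0 lay between 0.143 and 0.183 in the prors1 columns and between 0.0650 and 0.0778 in the WT columns.

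**Figure D2:**
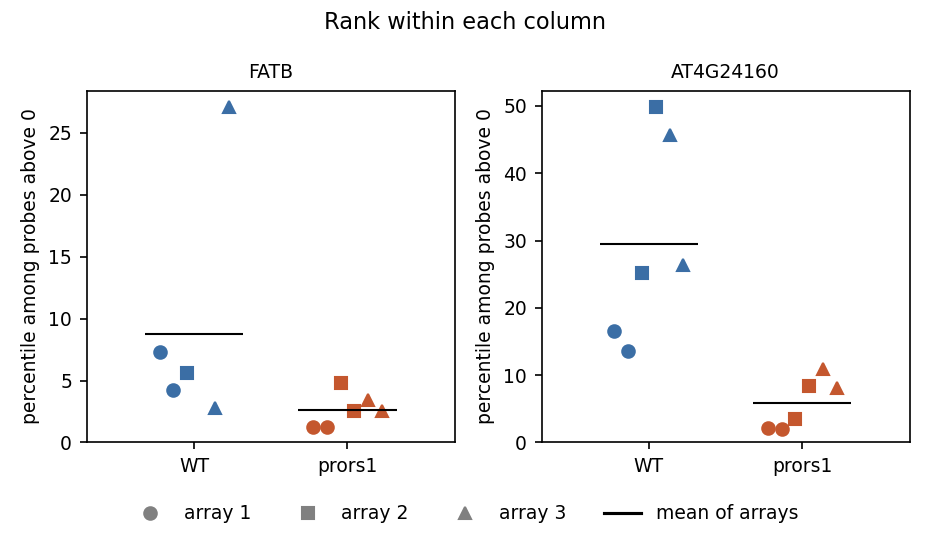
Percentile of FATB and AT4G24160 among the probes above 0 in the same column, by group. Symbols mark the array and lines the mean of the 3 arrays. All prors1 columns of AT4G24160 lie at or under 10.9 and all WT columns at or above 13.6, a separation in this direction found for 15.9% of tested probes, while FATB overlaps.

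After quantile normalization, which gives all columns 1 distribution, both genes were lower in prors1 relative to the other probes. FATB had a log2 fold (prors1 over WT) of -1.18 ± 0.37 (SE, 3 arrays per group), which is 2.27-fold lower. On the normalized log2 scale its arrays read -3.81, -3.78 and -3.45 in WT and -5.72, -4.35 and -4.51 in prors1. AT4G24160 had a log2 fold of -1.78 ± 0.46 (SE), which is 3.44-fold lower, from -2.86, -1.96 and -2.00 in WT to -5.01, -3.86 and -3.29 in prors1. The arrays of the groups did not overlap for either gene on this scale, as was the case for 24.9% of the 2908 tested probes in this direction. Both of the 2 genes passed a limma adjusted p under 0.05 as lower in prors1, as did 13.5% of tested probes (26.3% in either direction). FATB passed only narrowly. Since that contrast chose the genes, nothing is read from these counts.

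The direction for FATB turned with the scaling, while that for AT4G24160 did not among the scalings in which it kept values. On the values as deposited FATB had a log2 fold of 0.48 ± 0.28 (SE) and AT4G24160 of -0.54 ± 0.38. The median as-deposited log2 fold of all tested probes was 0.77, against -0.06 after quantile normalization, so the deposited values of prors1 are higher for most probes. With each column divided by its median the log2 folds were -0.42 ± 0.28 for FATB and -1.45 ± 0.39 for AT4G24160. Cyclic loess gave -0.32 ± 0.29 and -1.50 ± 0.38. A pseudocount of 0.0987 was also added to every value before quantile normalization, so that a 0 was kept. This gave -0.36 ± 0.21 and -0.95 ± 0.23. The pseudocount is larger than every prors1 value of FATB (at most 0.0965), so these folds do not reflect missing values alone. Without WT column 6, the high reading of 0.140, the quantile log2 fold of FATB was -0.77.

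**Figure D3:**
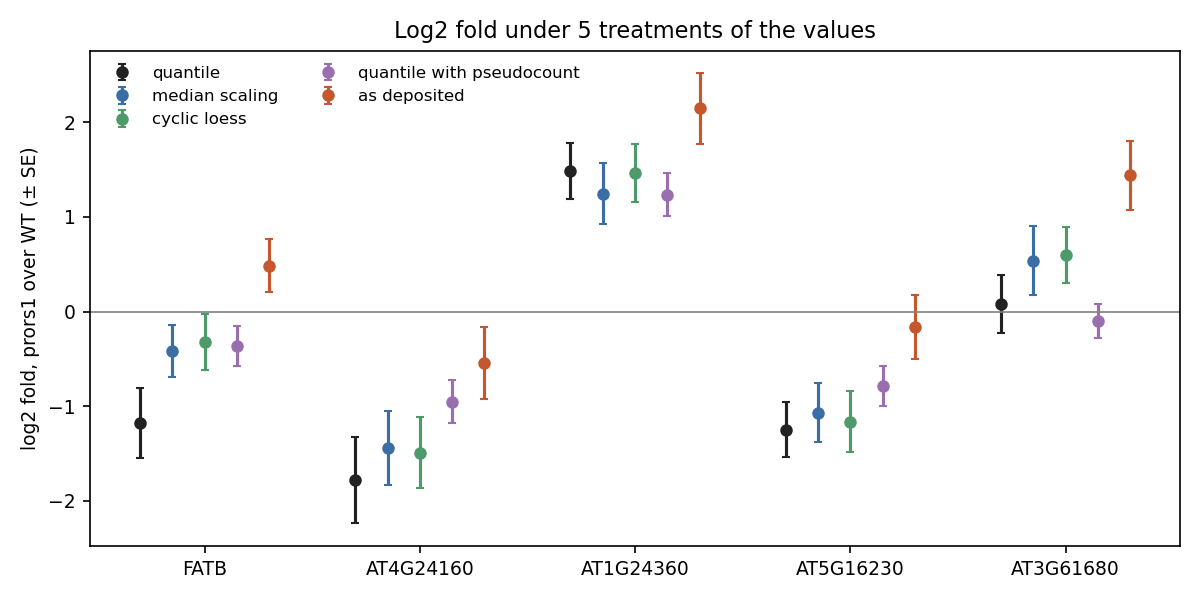
Log2 fold, prors1 over WT, with the moderated SE (3 arrays per group) under 5 treatments of the values, for FATB, AT4G24160 and 3 other lipid genes. FATB runs from -1.18 to 0.48 and AT4G24160 from -1.78 to -0.54.

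The shift of deposited values toward prors1 differed with brightness. With the tested probes split into 8 classes by their mean over the 12 columns, FATB (mean 0.0587) and AT4G24160 (mean 0.133) fell in the dimmest class of 364 probes. The median as-deposited log2 fold in that class was 0.70, with quartiles of 0.15 and 1.36. FATB at 0.48 lay between these quartiles and AT4G24160 at -0.54 under the lower one. After quantile normalization the class median was -0.50, the most negative of the 8 classes, against -0.19 in the brightest. A constant taken off each column to equalize the medians (0.184 to 0.296 in the prors1 columns) left 0 of 6 prors1 values above 0 for FATB and 0 of 6 for AT4G24160, so neither could be fitted on that scale. The part of an added background in the folds was not tested. Probes within 50 numbers of the FATB probe had a median quantile log2 fold of 0.13 (63 probes), and those around the AT4G24160 probe of -0.27 (59 probes).

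**Figure D4:**
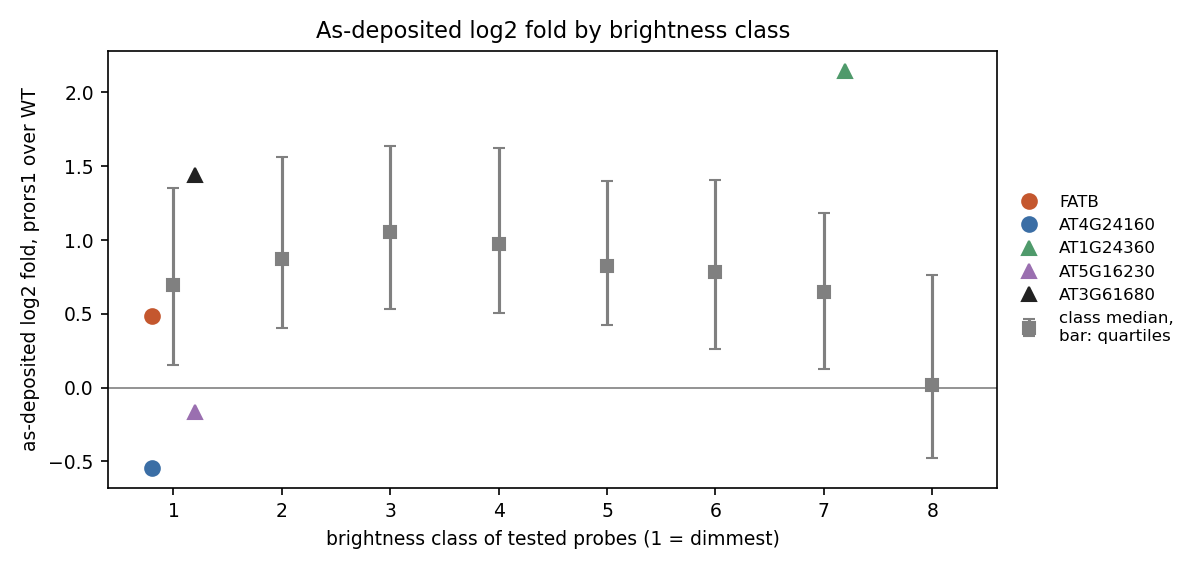
As-deposited log2 fold, prors1 over WT, of the tested probes in 8 classes by mean intensity (class 1 is the dimmest). Squares are class medians with bars from the lower to the upper quartile, and the 5 lipid genes are drawn in their class. FATB (0.48) lies within the bar of class 1 and AT4G24160 (-0.54) below it.

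Little of the rest of lipid metabolism could be read from probes of single genes. The 10 lists of fatty acid synthesis, export, membrane lipids, oil, lipid droplets, breakdown, waxes and polyamines held 157 entries. Apart from FATB and AT4G24160, 3 genes of these lists had a probe of their own and were tested. Of these 3, 1 rose and 1 fell at a limma adjusted p under 0.05, beside backgrounds of 12.8% higher and 13.5% lower. Their median log2 fold was 0.08, against -0.06 over all tested probes. The plastid export protein FAX1, the FATA thioesterases, the acyl-CoA synthetases, the oleosins and the main oil lipase SDP1 had no probe of their own. The roles given for the 3 loci come from general knowledge, as the gene table lists them by locus code.

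AT1G24360, the ketoacyl-ACP reductase that carries out the first reduction in each round of plastid chain building, rose in prors1. Its arrays read 0.169, 0.402 and 0.272 in WT and 1.004, 1.60 and 1.001 in prors1, with no overlap. Higher prors1 arrays without overlap were found for 52.5% of tested probes on the deposited scale. The mean intensity was 0.281 ± 0.12 (SD, n = 3) in WT and 1.20 ± 0.35 in prors1. Its log2 fold after quantile normalization was 1.49 ± 0.30 (SE, limma adjusted p = 0.0117), or 2.80-fold. It was called in all 28 alternatives that recorded a fold for it. Its log2 folds there were 1.18 to 2.15, with limma adjusted p from 6.77e-05 to 0.0436. For limma with trend and robust, the count over all probes alone was recorded.

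AT5G16230, of the stearoyl-ACP desaturase family that puts the first double bond into the chain while it is still bound to ACP, fell relative to the other probes. Its arrays read 0.226, 0.173 and 0.119 in WT and 0.197, 0.128 and 0.126 in prors1. These overlapped on the deposited scale, with means of 0.173 ± 0.054 (SD, n = 3) and 0.151 ± 0.040. The log2 fold after quantile normalization was -1.25 ± 0.29 (SE, limma adjusted p = 0.0195), and as deposited it was -0.17 (limma adjusted p = 0.703). The call also ended without WT array 1, prors1 array 2 or prors1 array 3 (limma adjusted p = 0.0543, 0.0656 and 0.0533). After a constant was taken off each column, 0 of 6 prors1 values of AT5G16230 stayed above 0, so it could not be fitted there.

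AT3G61680, a plastid lipase that releases fatty acids from membrane lipids, did not pass the test. Its arrays read 0.0347, 0.0547 and 0.0774 in WT and 0.136, 0.145 and 0.113 in prors1, all higher in prors1 on the deposited scale. The same held for 52.5% of tested probes. Its quantile log2 fold was 0.08 ± 0.31 (SE, limma adjusted p = 0.868). As deposited it was called higher at 1.44 (limma adjusted p = 0.0122), as were 43% of tested probes on that scale. FATB, AT4G24160, AT5G16230 and AT3G61680 share the dimmest class, and AT1G24360 lies in class 7.

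**Figure D5:**
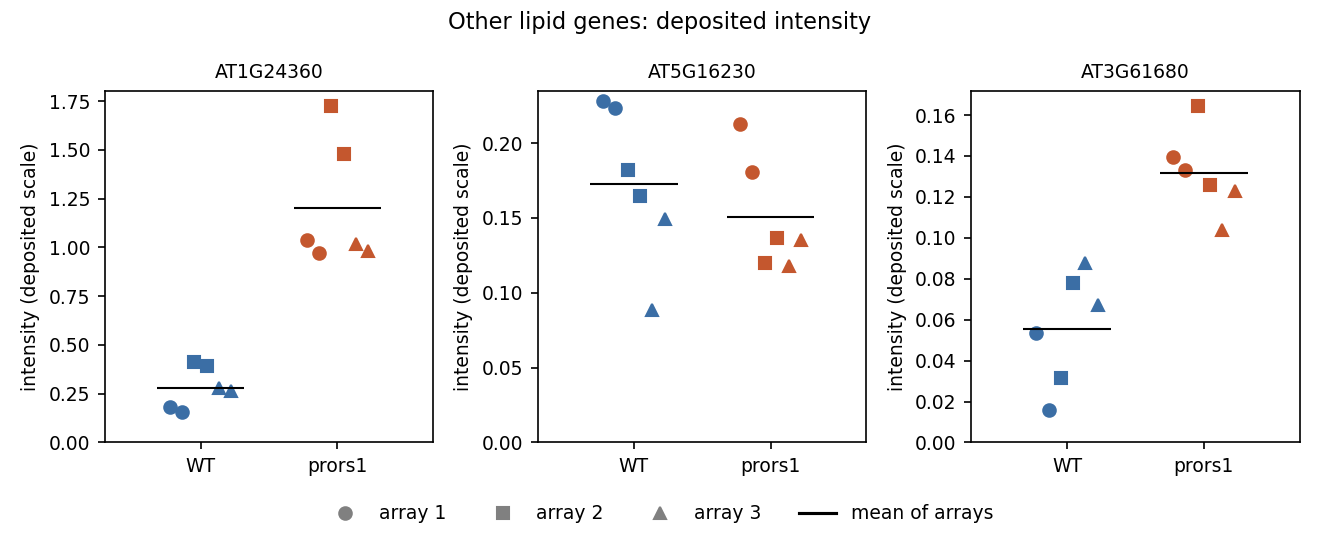
Deposited intensity (linear, unit not stated) of AT1G24360, AT5G16230 and AT3G61680 in the 6 WT and 6 prors1 columns, with the array of each column by symbol and the mean of the 3 arrays as a line. AT1G24360 is at or above 0.970 in every prors1 column and at or under 0.415 in every WT column.

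The genes whose normalized log2 values ran most like those of each gene were looked for among genes above 0 in all 12 columns. These correlations are descriptions over columns that share arrays and, in the first form, the difference between groups. AT4G24160 ran most like CCS, the copper chaperone of superoxide dismutase (Pearson r = 0.968 over 12 columns, 544 genes compared), followed by AT1G51080 (0.938) and CSLA01, a cellulose synthase-like gene (0.937). With group means taken off, CCS (0.923) again came first, then AT4G22490 (0.900) and AT1G01080 (0.870). FATB ran most like AT2G18920 (0.816 over 11 columns, 545 genes compared), CCL (0.814) and AT2G04360 (0.809), and with group means off like AT2G25870 (0.825), AT2G18920 (0.806) and AT2G37000 (0.766). FATB and AT4G24160 correlated at 0.662 with each other over 11 columns of both groups, a value to which their choice as lower in prors1 contributes, and at 0.330 with group means off. The names depend on the scaling: of these 12 places, held by 10 genes, 3 were kept on the values as deposited and 2 under median scaling.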

How the data were processed

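Per the values themselves, the authors deposited intensities on a linear scale, with a floor at 0 and a ceiling near 100. The scanner, the background correction and any scaling by the authors are not given in the sources used. Of the columns, 0 were left unmapped. FATB, AT4G24160 and the gene lists were chosen with earlier results of these data known. A 0 counted as missing in log2 values and folds, and as 0 in mean intensities unless stated. Log2 values of the 12 columns were brought to 1 distribution (quantile normalization, limma 3.58.1 in R 4.3.3), and the columns of an array were then averaged. The test took the 2908 of 3439 probes that were above 0 in 4 or more of the 6 columns of both groups, with group as the only term (lmFit and eBayes, two-sided, Benjamini-Hochberg over all tested probes, threshold 0.05). The SE is the moderated one. The fit alone was tested on simulated array values, a test that did not cover the normalization or the averaging of columns.

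Probes were named through the platform annotation of 2016, with symbols updated by the TAIR10.1 gene table. It lists 1 symbol for 692 probes (690 matched), several for 870 and none for 1877. No genome coordinates are printed, since the annotation states no build. Named are the 2 genes, every tested gene of the lists and the 3 most similar genes by each measure. A search of gene symbols and synonyms, many of them locus or clone codes, for lipid words added 0 genes. Gene descriptions were not searched, so this cannot show that no other lipid gene had a probe. Alternatives covered scaling, a constant background, missing values, a pseudocount at the 10th percentile of values above 0, column averaging, the array number as a block, limma with trend and robust, and the omission of each column and array. The removal, from each column, of a median running over neighbouring probe numbers was added after the data were seen.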

Additional observations from a re-analysis of the deposited data

How the results depend on the processing

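The log2 fold of FATB turned to 0.48 as deposited, and moved to -0.42 under median scaling, -0.32 under cyclic loess and -0.36 with the pseudocount, while that of AT4G24160 moved to -0.54 as deposited and -0.95 with the pseudocount. With 1 column or array left out FATB ran from -1.54 to -0.77 and AT4G24160 from -2.23 to -1.35. Neither could be fitted after a constant was taken off, and FATB not with all 6 values required. No other probe named either gene alone, so that alternative was not run. With the array number as a replicate block the log2 folds stayed at -1.18 ± 0.31 and -1.78 ± 0.25 (SE), 2 of 3 list genes were called as before, and 840 probes were called against 764. Same-numbered arrays deviated from their group means with correlations of 0.183, 0.083 and 0.238, and 1 of these was under 0.1, so no pairing was assumed. The count of called probes moved to 1332 as deposited (1250 higher, 82 lower), 1443 with columns as separate samples and 429 after a constant was taken off, and ran from 394 to 750 with 1 column or array left out (486 and 450 on leaving out the first or the third WT array, 458 and 394 for the first or the second prors1 array). The list count of 2 fell to 1 after a constant was taken off, where 1 gene could be fitted, and ran from 1 to 2 with 1 column or array left out. The sign of AT3G61680 turned with the pseudocount (-0.10), and its fold ran from -0.18 to 0.32 with 1 column or array left out. Of the 12 places of most similar genes, 3 were kept as deposited and 2 under median scaling. Causes of these changes were not tested. Background was not measured, and the prors1 values of both genes lie near the tenth percentile of their columns or under it.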

Other observations

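A further probe is annotated to FATB together with other thioesterase genes, 3 genes in all, and is attributed to none of them. It was listed at 0 in 10 of the 12 columns and reached at most 0.0283 in the other 2.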
